A study of Mus musculus with 10 samples.

Results

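Satellite peaks are narrow H3K9ac peaks of vehicle-treated cells that were lost after Kat2a inhibition, with an acetylated peak beside them in the treated cells. They were selected on the measured peak positions: DMSO H3K9ac peaks under 700 bp wide that overlapped no peak called after MB-3 but lay within 1000 bp of one. The rule found 1257 satellites among 11724 DMSO peaks, 10.7% (95% Wilson interval 10.2 to 11.3), and 4673 peaks were called after MB-3. The cells were TNGA, a mouse embryonic stem (ES) cell line with a GFP reporter at a single Nanog allele, grown in serum and LIF and treated for 48 hours with the vehicle DMSO or with 100 µM MB-3, a small-molecule inhibitor of Kat2a (Gcn5). Both treatments contained DMSO at 0.1% of the volume. H3K9ac was mapped by ChIP-seq against input DNA, with the duplicates of each treatment merged into a single peak list, and RNA-seq was done on 3 cultures per treatment, labelled A, B and C, with 42270312 to 51137896 counts per library. All samples came from this single line, so no other ES line or clone stands behind the values.

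Kat2a is the catalytic subunit of the SAGA and ATAC complexes and acetylates lysine 9 of histone H3. This mark gathers on the nucleosomes on either side of the nucleosome-depleted start site of active genes, so that a single promoter is often called as several neighbouring peaks. In ES cells it lies at promoters and enhancers of pluripotency, cell cycle and housekeeping genes.

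The part of the authors' peak annotation used here, 1999 of the 11724 DMSO peaks, on chromosomes 1 and 10 and part of 11, pairs each peak with its nearest gene. It placed 207 satellites with 189 genes, of which 173 had 1 satellite, 14 had 2, and Tet1 and Nf2 had 3 each. The distance from peak to gene was not analysed here, so a paired peak need not lie at the gene's promoter. Tet1 encodes an oxidase of 5-methylcytosine and Nf2 the tumour suppressor merlin. The 250 bases before the start site of each follow because these genes carried the most satellites, with CpG dinucleotides in capitals. They were taken from RefSeq on GRCm38.p6, at chr10:62887325-62887574 for Tet1 and chr11:4849545-4849794 for Nf2, both on the minus strand and written along the gene (Nf2 has 2 listed starts and the first is shown). The peaks are on mm9, so where they fall on these bases was not analysed here.
Tet1: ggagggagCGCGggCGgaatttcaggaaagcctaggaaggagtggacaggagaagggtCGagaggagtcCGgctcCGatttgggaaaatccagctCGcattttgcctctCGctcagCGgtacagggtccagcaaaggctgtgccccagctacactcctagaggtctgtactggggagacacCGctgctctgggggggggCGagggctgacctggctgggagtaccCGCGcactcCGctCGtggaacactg
Nf2: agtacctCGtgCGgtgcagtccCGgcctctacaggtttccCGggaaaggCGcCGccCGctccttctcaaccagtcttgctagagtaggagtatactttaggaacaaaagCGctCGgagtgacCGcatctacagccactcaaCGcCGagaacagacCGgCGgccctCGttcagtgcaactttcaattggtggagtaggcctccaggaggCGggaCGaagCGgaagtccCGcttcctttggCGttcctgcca
The Tet1 window held 15 CpG and the Nf2 window 20. Over the 165 genes with a satellite that had a RefSeq promoter, the median was 20 CpG in 250 bases. It was 19 for 46 genes with kept and lost peaks but no satellite, 18 for 328 genes with only kept peaks, 17 for 548 genes with only lost peaks and 6 over all 27025 promoters listed.

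Loss was the common outcome for DMSO peaks, and satellites were a minority of the lost ones. MB-3 left 7521 of the 11724 DMSO peaks without any overlapping peak, or 64.2%, and among the 8082 under 700 bp wide the share was 79.7%. Satellites made up 16.7% (15.9 to 17.6) of all lost peaks and 14.2% of their summed length. The other lost peaks were 5181 narrow ones farther than 1000 bp from an MB-3 peak, 212 wider ones within that distance and 871 wider ones beyond it. The reverse arrangement, an MB-3 peak under 700 bp that overlapped no DMSO peak but lay within 1000 bp of one, was found 82 times, or 1.75% (1.42 to 2.17) of MB-3 peaks. Of those 82 peaks, 37 were themselves the MB-3 peak nearest to a satellite. The lists hold positions without heights or read numbers, so less acetylation and fewer reads in the MB-3 ChIP cannot be told apart. All intervals on peaks cover counting error only, and they are given as a description, because the members were selected on the same contrast.

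Satellites were mostly under 500 bp wide, within the limit of 700 bp that the rule sets. Their median width was 390 bp (95% interval of the median 382 to 400, quartiles 318 and 498), and the narrowest DMSO peak of any kind was 266 bp. The largest share, 36.4% (33.7 to 39.1), was 300 to 400 bp wide, and 9.79% were 600 to 700 bp. Narrow lost peaks with no MB-3 peak nearby had almost the same width, with a median of 398 bp (392 to 403), whereas kept peaks under 700 bp had a median of 532 bp (524 to 540). The satellites just under the width limit were 2 of 699 bp, at chr15:76306941-76307639 and chr19:7280520-7281218, and 1 of 698 bp at chr1:65233374-65234071. The nearest lost peaks outside it were 700, 701 and 702 bp wide, at chr1:64578522-64579221, chr7:119822000-119822700 and chr14:51549706-51550407.

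Satellites lay in nearly equal numbers on both sides of the MB-3 peak. There were 630 on the side of lower coordinates and 627 on the other, so the lower side held 50.1% (47.4 to 52.9). The median gap was 398.5 bp (381 to 427) on the lower side and 423 bp (398 to 452) on the higher side. Read along the strand of the paired gene, 115 satellites lay upstream of the MB-3 peak and 92 downstream, which is 55.6% upstream (48.7 to 62.2). The upstream satellites had a median width of 415 bp (384 to 461) and the downstream ones of 402 bp (377 to 434).

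The spacing had a clear mode between 200 and 400 bp from the MB-3 peak. The gap from the satellite's edge to the nearest MB-3 peak had a median of 413 bp (394 to 428) with quartiles of 278 and 611 bp, and ran from 8 to 1000 bp. Gaps of 200 to 400 bp held 35.5% (32.9 to 38.2) of satellites, and 42 satellites had a gap under 100 bp. From centre to centre the median distance was 894.5 bp (872.5 to 915.5). The numbers fell with distance, from 228 satellites at 300 to 400 bp to 65 at 900 to 1000 bp. Narrow lost peaks continued to thin out past the limit, with 139 at over 1000 and up to 1500 bp and 64 at over 1500 and up to 2000 bp. The satellites nearest the limit had gaps of 1000, 997 and 997 bp, at chr5:20386916-20387361, chr2:119725079-119725355 and chr7:3643925-3644440. Just outside it, lost peaks had gaps of 1001, 1003 and 1003 bp, at chr19:5804396-5804704, chr8:74846393-74846706 and chr9:21171180-21171461.

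**Figure D1:**
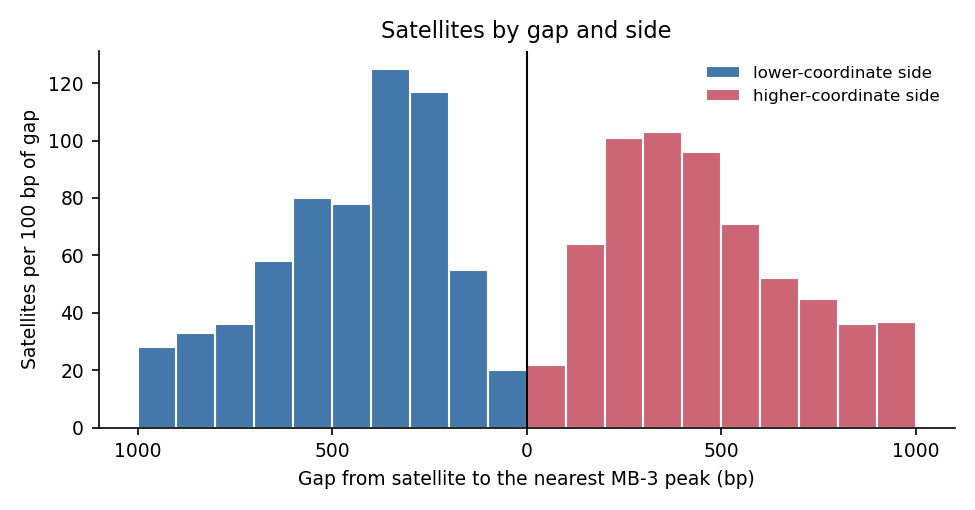
Number of satellites (vertical axis) in each 100 bp of gap to the nearest MB-3 peak (horizontal axis, bp), with the lower-coordinate side to the left and the higher-coordinate side to the right of the peak at 0. Both sides peak between 200 and 400 bp and hold 630 and 627 satellites.

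Part of the gap to the MB-3 peak was opened by withdrawal of the kept peak's own edge. Among 939 kept DMSO peaks that matched a single MB-3 peak one to one and had satellites on a single side, the DMSO gap to the satellite had a median of 282 bp (265 to 295, n = 960 satellites), and the gap to the MB-3 peak had a median of 414 bp (395 to 436). The edge that faced the satellite withdrew by a median of 88 bp (84 to 95), and the opposite edge by 145 bp (128 to 159). The facing edge withdrew more in 368 of the 939, or 39.2% (36.1 to 42.4). Kept peaks without a satellite withdrew by a median of 110 bp (106 to 114) at an edge. The rule caps the gap, and so caps withdrawal on the facing side; with the limit raised to 2000 bp the medians were 90 bp facing and 144 bp away. Neighbouring DMSO peaks were never closer than 49 bp.

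Kept peaks with and without a satellite had similar median widths. In DMSO the 1004 one-to-one kept peaks with a satellite had a median width of 759.5 bp (735 to 786) and the 2777 without one 769 bp (755 to 785). After MB-3 the widths were 435 bp (417 to 452) and 422 bp (412 to 432). The median share of the DMSO width that remained was 64.1% (62.2 to 65.8) beside a satellite and 62.0% (60.8 to 63.4) elsewhere. The satellite was narrower than its kept DMSO neighbour in 89.1% (86.9 to 90.9) of 960 cases, and its median width was 53.4% (50.8 to 55.4) of the neighbour's. This direction is partly set by the rule, which limits the width of satellites and not that of kept peaks.

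Most MB-3 peaks had no satellite, and nearly all of those that had any had a single one. The 1257 satellites shared 1157 MB-3 peaks, 24.8% (23.5 to 26.0) of all MB-3 peaks. Of these, 1063 had 1 satellite, or 91.9% (90.2 to 93.3), 89 had 2, 4 had 3 and 1 had 4. Among the 94 with at least 2, satellites flanked the peak on both sides in 66 and lay on a single side in 28. For 40 satellites, 3.18% (2.35 to 4.30), the nearest MB-3 peak overlapped no DMSO peak at all, so that the acetylated position itself differed between the lists. Satellites were spread over the genome. Their share of DMSO peaks ran from 8.82% (6.41 to 12.0) on chromosome 19 to 13.2% (9.85 to 17.5) on the X chromosome, leaving out the Y chromosome with 4 DMSO peaks.

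The MB-3 peak with the most satellites was 269 bp wide, at chr7:134655600-134655868, inside a kept DMSO peak of 429 bp. It had satellites of 505 and 353 bp on the lower side, at gaps of 732 and 312 bp, and of 295 and 547 bp on the higher side, at gaps of 226 and 899 bp. In DMSO this was a row of 5 peaks, and only the central peak remained. Another 4 MB-3 peaks had 3 satellites each. Those with the largest summed satellite width were a 525 bp peak at chr5:141179640-141180164, with satellites at 595 and 136 bp below and 944 bp above, and a 973 bp peak at chr5:53947121-53948093, with satellites at 344 bp below and 268 and 930 bp above.

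To follow acetylated clusters, DMSO and MB-3 peaks were linked over gaps of up to 1000 bp, which gave 1133 clusters with a satellite. Most of them ended as a single peak, which the selection favours, since every cluster held a lost satellite beside an MB-3 peak and most held few DMSO peaks. In DMSO 754 clusters held 2 peaks, 261 held 3, 58 held 4, 33 held 5 or more and 27 held 1. After MB-3, 881 clusters, or 77.8% (75.2 to 80.1), had 1 peak, 195 had 2, 39 had 3 and 18 had 4 or 5. The median span from the first to the last peak was 1793 bp (1737 to 1829) in DMSO and 522 bp (495 to 545) after MB-3, and the median cluster retained 33.3% (32.1 to 34.8) of its span and 39.7% (38.5 to 40.8) of its covered length. Only 8 clusters covered more after MB-3 than in DMSO. Of the 1801587 bp that DMSO peaks covered in these clusters, satellites held 29.1%, the withdrawn parts of kept peaks 25.3% and other lost peaks 5.74%. The remaining 39.9% was covered in both treatments.

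The centre that remained was usually the widest DMSO peak, and its position was spread over the cluster. In the 1106 clusters with at least 2 DMSO peaks, the widest DMSO peak was kept in 87.3% (85.2 to 89.1) and the narrowest in 10.7% (8.98 to 12.6). These shares are partly set by the rule, since each cluster had to hold a lost peak under 700 bp. In the 854 of these left with a single MB-3 peak, its centre lay inside the widest DMSO peak in 84.0% (81.3 to 86.3). It fell in the central portion of the DMSO span, between 33.3% and 66.7% of its length, in 35.0% (31.9 to 38.3), below it in 33.5% (30.4 to 36.7) and above it in 31.5% (28.5 to 34.7). The central portion was reached more often in the 142 clusters of 3 DMSO peaks, 55.6% (47.4 to 63.5), than in the 683 of 2 peaks, 29.6% (26.3 to 33.1). A cluster of 2 peaks has no middle peak. The number of peaks therefore partly sets both this contrast and the spread of the position over the span.

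Clusters were also formed from DMSO peaks alone, without reference to satellites. By this linking 2184 pairs were found: 880, or 40.3% (38.3 to 42.4), lost both peaks, 906, or 41.5% (39.4 to 43.6), kept 1 and 398 kept both. Of the 5536 DMSO peaks with no DMSO neighbour within 1000 bp, 68.5% (67.3 to 69.7) were lost. Of 419 clusters of 3, 92 lost all peaks, 158 kept 1, 135 kept 2 and 34 kept all. Between 500 and 600 bp of width, 65.1% (61.7 to 68.4) of peaks with a DMSO neighbour and 74.6% (71.2 to 77.7) of lone peaks were lost. Under 300 bp the shares were 93.1% (90.8 to 94.8) and 95.5% (93.6 to 96.9). The median DMSO gap was 289 bp (279 to 309) in pairs that kept 1 peak, 284 bp (263 to 308) in pairs that kept both and 326 bp (308 to 346) in pairs that lost both.

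**Figure D2:**
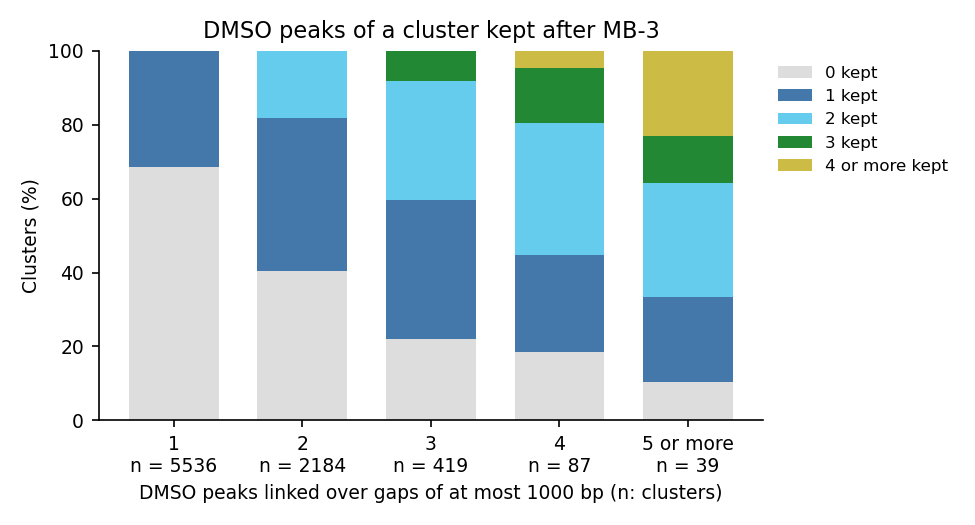
Share of DMSO clusters (vertical axis, percent) by the number of DMSO peaks they held (horizontal axis), divided by how many of those peaks were kept after MB-3. Pairs that kept 1 peak make up 41.5% of pairs, and no peak was kept in 68.5% of lone peaks and 22.0% of clusters of 3.

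The kept peak of a pair was more often the wider one, while the lower and the higher side were kept in nearly equal numbers. This is a description, since kept and lost status and width were used by the rule and 750 of the 2184 pairs held a satellite. In pairs that kept 1 peak, the wider was the kept one in 742 of 903, or 82.2% (79.5 to 84.5), leaving out ties, and the peak of lower coordinates in 454 of 906, or 50.1% (46.9 to 53.4). With a width ratio of up to 1.2 the wider peak was kept in 45.7% (37.3 to 54.3) of 127 pairs. The share was 70.2% (62.7 to 76.7) at ratios of 1.2 to 1.5, 87.9% (82.7 to 91.6) at 1.5 to 2, 93.2% (89.3 to 95.8) at 2 to 3 and 98.3% of 172 pairs above 3. In the 158 clusters of 3 that kept 1, the middle peak was kept in 88, or 55.7% (47.9 to 63.2), and was the widest in 74, or 46.8% (39.2 to 54.6). The widest of the 3 was the kept one in 76.6% (69.4 to 82.5).

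**Figure D3:**
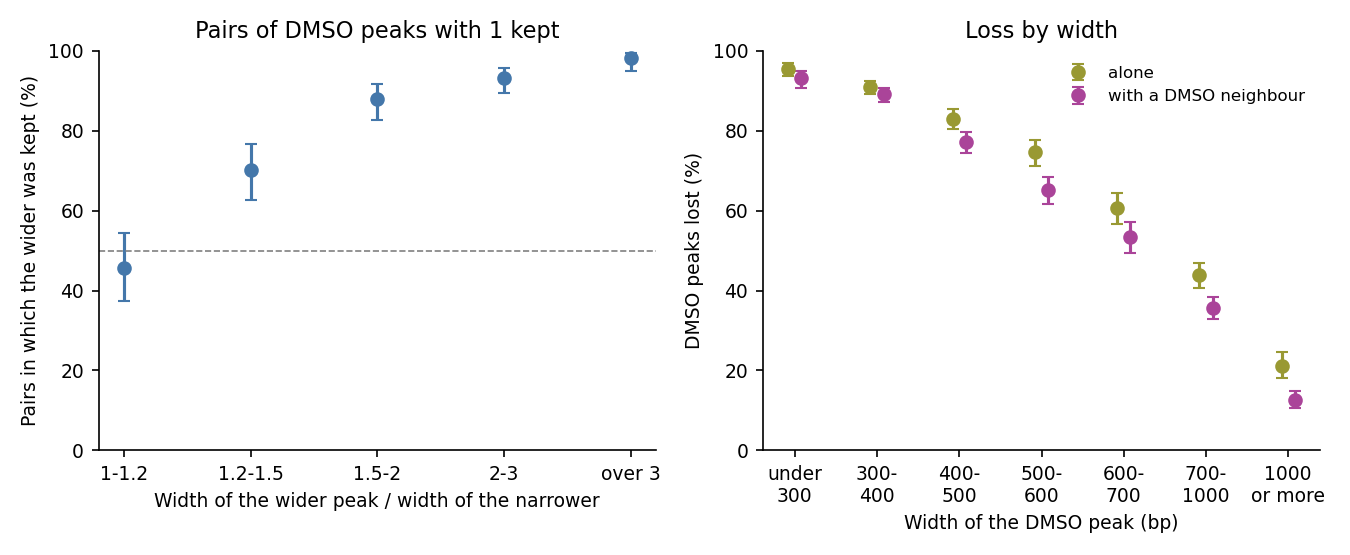
Left, share of DMSO pairs with 1 peak kept in which the wider was kept (percent) by the ratio of the widths. Right, share of DMSO peaks lost (percent) by width in bp, for peaks with and without a DMSO neighbour within 1000 bp. Points are shares and bars 95% Wilson intervals, and the share for pairs with a ratio of up to 1.2 is 45.7%, with the dashed line at 50%.

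The cluster that gave up the most covered length was at Tet1. It held 12 DMSO peaks over 14225 bp, at chr10:62347562-62361786, all paired with Tet1, and 3 peaks remained. Covered length went from 9662 to 2438 bp, or 25.2%. The 3 kept DMSO peaks were 2759, 1934 and 866 bp wide and shrank to MB-3 peaks of 1086, 901 and 451 bp. Each had a satellite on its higher-coordinate side, of 308 bp at a gap of 713 bp, of 582 bp at 256 bp and of 630 bp at 883 bp. A run of 5 further narrow peaks, 309 to 660 bp wide and 1971 to 4740 bp from the last MB-3 peak, was lost too but lay outside the rule. The next cluster, at chr2:162878227-162888743, went from 8 DMSO peaks to 3 MB-3 peaks and from 7918 to 2073 bp. The third, at chr4:140838897-140846324, went from 7 peaks and 4840 bp to a single peak of 425 bp, 8.78% of the covered length. These last clusters each had 1 satellite, because most of their lost peaks were wider or more distant than the rule allows.

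**Figure D4:**
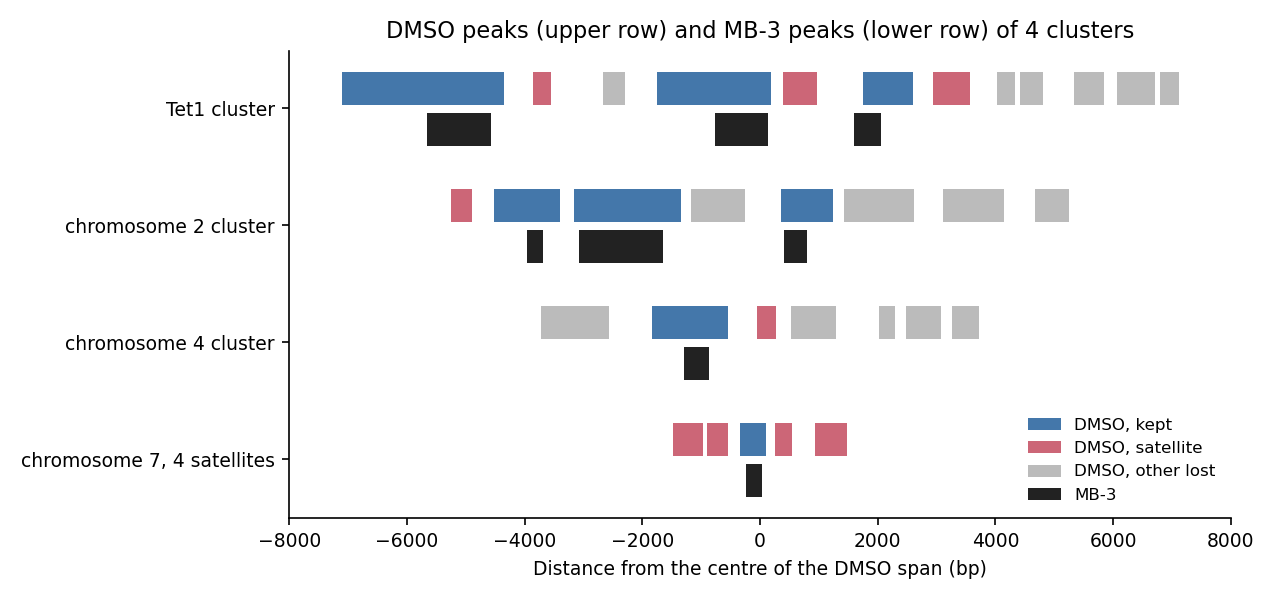
Peaks of the 3 clusters that lost the most covered length and of the MB-3 peak with 4 satellites, drawn to scale by distance in bp from the centre of the DMSO span (horizontal axis), with DMSO peaks in the upper row and MB-3 peaks in the lower row of each. The Tet1 cluster holds 12 DMSO and 3 MB-3 peaks, and each of its MB-3 peaks overlaps a kept DMSO peak.

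Most satellites were paired with the same nearest gene as the kept peak beside them, which the gap limit of 1000 bp favours. Of 199 annotated satellites whose MB-3 peak overlapped a DMSO peak, 173, or 86.9% (81.5 to 90.9), were paired with the same gene as that DMSO peak. Among the exceptions were Ing5, a reader subunit of histone acetyltransferase complexes, and Mrpl30, a mitochondrial ribosomal protein. Both satellites of Ing5, at chr1:95699486-95699887 and chr1:95700000-95700426, lay beside a kept peak paired with Dtymk, and that of Mrpl30, at chr1:37947410-37947875, beside a kept peak paired with Mitd1. Cbx1, which encodes the heterochromatin protein HP1 beta, had a kept DMSO peak of 1610 bp that left 2 MB-3 peaks, of 1081 and 327 bp. A satellite of 602 bp lay 231 bp below the wider and one of 383 bp lay 136 bp above the narrower. Zfp281, a zinc finger factor of the pluripotency network, had 10 DMSO peaks, of which 2 were kept, each with 1 satellite, of 347 and 286 bp. These 2 kept peaks lay far apart, at chr1:138467423-138467875 and chr1:138592916-138593923. Npm1, a nucleolar histone chaperone, had satellites of 408 and 410 bp on the same side of its widest kept peak. Nop58, a core protein of small nucleolar ribonucleoproteins, had 3 kept peaks and satellites of 280 and 623 bp at gaps of 624 and 802 bp. For Nf2, 2 of the 3 satellites, of 511 and 593 bp, lay beside an MB-3 peak of 250 bp, the narrowest width in that list, which overlapped no DMSO peak. These satellites were at chr11:4703460-4703970 and chr11:4704296-4704888, far from the other Nf2 satellite at chr11:4749810-4750096. Actr3, Hnrnph1 and Tmem11, chosen after their values were seen, each had 1 kept peak with a satellite on either side.

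RNA-seq was used to ask whether transcripts of genes with satellites differed, since it played no part in the rule. Its libraries carried ES cell markers. Of the ES cell markers, all 6 of 6 were detected, with a summed level of 1000.2 to 1071 RPKM per library, Pou5f1 being the most abundant at 299 ± 15.7 RPKM (SD, n = 3) in DMSO libraries and 301 ± 15.6 RPKM in those of MB-3. RPKM are normalised counts per kilobase of exon and per 1000000 counts. The feeder fibroblast markers Col1a1, Col1a2 and Thy1, with Thy1 the most abundant, summed to 1.38 to 1.52 RPKM in DMSO and 1.00 to 1.34 in MB-3. Col1a1 was at 0.115 to 0.188 RPKM in DMSO and 0.0381 to 0.0888 in MB-3. Col1a2 was at 0.0994 to 0.177 RPKM in DMSO and 0.0421 to 0.0863 in MB-3. The markers of other lineages, Sox1, T, Gata6 and Sox17, summed to 5.01 to 14.7 RPKM in DMSO and 2.51 to 3.97 in MB-3. Most of that was the mesoderm factor T, at 7.14, 3.91 and 14.0 RPKM in DMSO A, B and C and 2.02, 1.54 and 3.21 in MB-3. The part of T and of the feeder fibroblast markers in the results below was not tested.

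The RNA-seq calls among genes with a satellite depended on the fit, with 0 in the main edgeR fit without the replicate letter and 22 with it. Other fits without the letter called 0 to 5 of these genes. Of the 189 genes, 187 were tested, and the quasi-likelihood test of edgeR, adjusted by Benjamini-Hochberg over all 20027 genes, called 0 of them at 0.05 without the letter, beside 41 genes in all, 0.205% (20 higher, 0.0999%, and 21 lower, 0.105%). At an unadjusted p under 0.05 there were 27 of the 187, or 14.4%, beside 10.9% of all genes tested. DESeq2 called 3 of the 184 with an adjusted p, or 1.63%, beside 1.04% of all genes with one (0.438% higher). All 3 were higher in MB-3, namely Bend3 (adjusted p = 0.0088), Map7 (adjusted p = 0.046) and Zfp652 (adjusted p = 0.021), chosen after their values were seen. With the replicate letter as a block, which the correlated deviations of same-letter libraries call for, edgeR called 22 of the 187, or 11.8%, of which 18 were higher and 4 lower, beside 7.12% of all genes (3.22% higher and 3.9% lower). With the block it also called 8 of 49 genes with kept and lost peaks but no satellite, 20 of 368 with only kept peaks and 52 of 651 with only lost peaks.

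Shifts in transcript level were small and leaned upwards. The median log2 fold change (MB-3 against DMSO) of the 187 genes was 0.033 (0.013 to 0.053, an interval over genes, which are not independent replicates), beside -0.0011 over all genes tested, and 38.5% of them were below 0, beside 50.3% of all. Genes with kept and lost peaks but no satellite were below 0 in 36.7% of cases, those with only kept peaks in 44.0% and those with only lost peaks in 49.2%. The median RNA level of genes with a satellite in DMSO was 14.9 RPKM, against 3.60 over all genes tested. It was 18.4 RPKM for genes with kept and lost peaks but no satellite, 17.8 for genes with only kept peaks and 6.38 for genes with only lost peaks, so a level above that of all genes was shared by every class with a peak. Whether expression level had a part in the difference was not tested.

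Of the 1291 genes with an annotated DMSO peak, 14.6% (12.8 to 16.7) had a satellite, which is the background for the lists that follow. Among pluripotency and early embryo regulators, 20 of 29 listed genes had an annotated DMSO peak and 5 a satellite: Tet1, Zfp281, Fzd7, Foxo3 and Stat3. None passed edgeR's test without the block, beside 0.205% of all genes tested, and their log2 fold changes ran from -0.14 to 0.28. With the block Tet1 and Fzd7 passed and Zfp281, Foxo3 and Stat3 did not, beside 7.12% of all genes. Tet1 RNA was at 421, 362 and 333 CPM (normalised counts per 1000000) in DMSO A, B and C and at 497, 416 and 446 in MB-3. Within each letter the MB-3 library was the higher, although the groups overlap. Its log2 fold change was 0.28 ± 0.086 (SE), with an edgeR adjusted p of 0.24, and an adjusted p of 5e-05 with the replicate block. Fzd7, a Wnt receptor, was at 159.7, 162 and 154 CPM in DMSO and 182, 170.0 and 185 in MB-3, so that every MB-3 library exceeded every DMSO library. Its log2 fold change was 0.18 ± 0.055 (edgeR adjusted p = 0.26, and 0.013 with the block). Zfp281 was at 138, 133 and 128 CPM in DMSO and 149.5, 143 and 138 in MB-3, with the groups all but touching, and a log2 fold change of 0.11 ± 0.056. Stat3, the transcription factor downstream of LIF, went the other way, at 81.5, 76.6 and 79.1 CPM in DMSO and 72.4, 73.0 and 70.2 in MB-3, without overlap. Its log2 fold change was -0.14 ± 0.055 (edgeR adjusted p = 0.38, and 0.079 with the block). Foxo3, a forkhead factor, had a log2 fold change of -0.027 ± 0.058.

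The chromatin regulators and the 3 lists after them were drawn from genes of the peak annotation, so that every member has a peak by construction. Of the 40 chromatin regulators, 9 had a satellite: Asf1a, Cbx1, Hmg20b, Ing5, Kat7, Kdm5b, Mbd3, Msl1 and Tada2a, the last a subunit of the Kat2a complex ATAC. None passed edgeR's test without the block, beside 0.205% of all genes tested, and the median log2 fold change was 0.056. With the block Kdm5b alone passed, beside 7.12% of all genes. Kdm5b, a demethylase of histone H3 lysine 4, was at 355, 364 and 299 CPM in DMSO and 422, 400.5 and 381 in MB-3. The groups do not overlap. Its log2 fold change was 0.24 ± 0.075 (edgeR adjusted p = 0.26, and 0.00039 with the block). Cbx1 was at 291, 298 and 263 CPM in DMSO and 303, 315 and 308 in MB-3, also without overlap, with a log2 fold change of 0.12 ± 0.060 (edgeR adjusted p = 0.49, and 0.086 with the block). When a library was left out, the log2 fold change ran from 0.16 to 0.29 for Kdm5b and from 0.068 to 0.16 for Cbx1. Both were lowest without DMSO C. Kat7, the catalytic subunit of another acetyltransferase complex, was at 192, 185 and 191 CPM in DMSO and 189.6, 197 and 198 in MB-3, with overlapping groups.

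In the remaining lists edgeR called no gene with a satellite, beside 0.205% of all genes without the block and 7.12% with it. In cell cycle, replication and repair 5 of 36 genes had a satellite (Fbxo5, Mdm2, Mdm4, Timeless and Xrcc5), none was called by edgeR with or without the block, and log2 fold changes ran from -0.064 to 0.12. Of 42 mitochondrial proteins, Atp5g1, Mrpl30 and Mrpl45 had a satellite, and their log2 fold changes ran from -0.091 to -0.028, none called by either fit. Of 28 ribosome and translation genes 9 had a satellite (Eef2, Eif5b, Larp1, Naca, Ncl, Nop58, Npm1, Rpl19 and Rpl31), their median log2 fold change was -0.013, and none was called by either fit. Nf2, on none of the lists, was at 356, 332 and 329 CPM in DMSO and 333, 346 and 334 in MB-3, with a log2 fold change of -0.0059 ± 0.056. In all, 5 of the 29 genes named by rule had libraries that did not overlap between treatments, beside 15.6% of all genes tested.

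**Figure D5:**
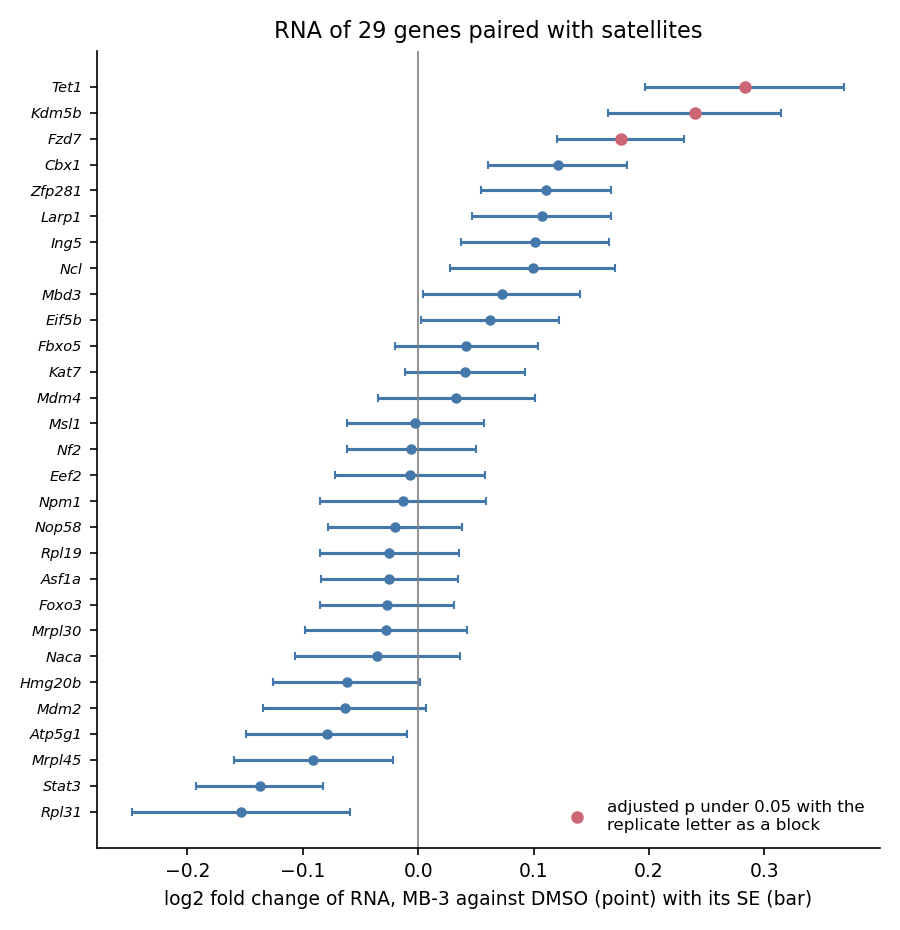
Log2 fold change of RNA in MB-3 against DMSO (horizontal axis) for the 29 genes named by rule, with its standard error as a bar, from edgeR on 3 libraries per treatment. None passed an adjusted p of 0.05 without the block, and the 3 red points (Tet1, Kdm5b and Fzd7) passed it with the replicate letter as a block.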

How the data were processed

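The authors aligned ChIP-seq reads to mm9 with BWA, merged the duplicates, used MACS2 with the input libraries to call peaks, and deposited peak positions only, without a score, signal or read number (other, in base pairs). Start positions were raised by 1 for printing. Per the labels and the paper's methods, RNA-seq reads were aligned to mm10 with Bowtie, and the authors deposited raw read counts per Ensembl gene; 0 columns were left unused. Versions are not given in the sources used here, nor is the use of strand in counting.

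The members and gene lists were chosen with earlier results of these data known. Overlap meant any shared base. Shares carry Wilson intervals and medians exact binomial intervals at 95%. Counts were tested with edgeR 4.0.16 in R 4.3.3 (filterByExpr, TMM, glmQLFit and glmQLFTest, treatment only, Benjamini-Hochberg threshold 0.05). CPM were scaled by TMM, and RPKM used exon lengths of GENCODE M21. No statement was found that the 3 cultures per treatment were independent, so p-values measure the spread between these libraries. Deviations from the group means correlated at 0.23, 0.43 and 0.32 between the A, B and C libraries of each treatment. The letters, which come from the labels, were therefore taken to pair the samples. Other pairs correlated negatively, which subtracting the group means favours.

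The edgeR fit and the peak procedure were tested on simulated data with known answers. The simulated libraries had no replicate effect and changes of 1.5, 2 and 4 fold, so smaller changes were not covered. Of the 1.5-fold changes 70.6% were called, and 7.82% of calls were unchanged genes. Peaks named were the 3 MB-3 peaks with the most satellites, the 3 clusters that lost the most covered length and the 3 lost peaks nearest each limit, outside chromosome 18. Genes named were those paired with a satellite that were on 1 of 5 lists, had at least 3 satellites or were called by edgeR. This gave 33 genes, and the 30 with the most satellites were used, with ties broken in alphabetical order. Of these, 1 is not reported here and was left out of its list. Alternatives were other gap, width, overlap and linking limits, RLE, no filter, DESeq2 1.42.0, the block and each library left out. Python 3.11.15 with pandas 2.3.3 and scipy 1.17.1 was used for peaks.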

Additional observations from a re-analysis of the deposited data

How the results depend on the processing

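The share of satellites on the lower side stayed within its interval under all 8 other definitions, as did the share of pairs that kept the wider peak under 4 alternatives chosen after seeing the data, and 0 directions of a gene named by rule turned outside the fits that left out a library. The gap limit and the peak the gap was measured to moved the values. At 500 bp there were 782 satellites with a median gap of 304 bp, 95.6% of their MB-3 peaks had 1 satellite and the facing edge withdrew by 81 bp (this last chosen after seeing the data). At 2000 bp the median gap was 465 bp and 86.6% had 1 satellite. Measured to the nearest kept DMSO peak, the median gap was 288 bp and 89.4% had 1 satellite, and with DMSO peaks of at least 300 bp only, 94.0% had 1. For clusters, linking over 500 bp gave 2.30 DMSO peaks per cluster, 80.3% left with 1 MB-3 peak and 34.9% of the span, linking over 2000 bp gave 2.48 DMSO peaks per cluster, against a mean of 2.41 as reported, and with peaks of at least 300 bp only, 81.3% were left with 1 MB-3 peak.

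The number of RNA-seq calls rests on the fit. Without a filter on low counts there were 194 calls (50 higher, 144 lower), 1 of them with a satellite (Bend3). DESeq2 made 183 calls (77 higher, 106 lower), 3 with a satellite. With the replicate letter as a block there were 1425 (644 higher, 781 lower), 22 with a satellite, and beside the calls of Tet1, Kdm5b and Fzd7 it changed no other call among the 29 genes named by rule (Bend3, Map7 and Zfp652, named outside the rule, were called with it). Leaving out each library gave 0 to 520 calls, 0 to 128 higher and 0 to 392 lower. The extremes were 0 calls without MB-3 A or MB-3 B and 520 without DMSO B, and there were 3 without DMSO A, 5 without DMSO C and 62 without MB-3 C. Genes with a satellite made 0 to 5 of them, the 5 without DMSO B, and their median log2 fold change stayed between 0.021 and 0.039. The cause was not tested. Fold changes of 12 genes named by rule turned sign when a library was left out, with log2 ranges of -0.034 to 0.011 for Eef2, -0.0016 to 0.089 for Fbxo5, -0.057 to 0.0066 for Foxo3, -0.13 to 0.0075 for Mdm2, -0.025 to 0.084 for Mdm4, -0.095 to 0.0086 for Mrpl30, -0.021 to 0.020 for Msl1, -0.11 to 0.028 for Naca, -0.026 to 0.030 for Nf2, -0.052 to 0.0027 for Nop58, -0.069 to 0.031 for Npm1 and -0.064 to 0.021 for Rpl19. The peak lists hold no read numbers, so the depth behind a lost peak is unknown. The paper gives a relatively low read number as its reason for merging the ChIP duplicates.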
